A study of Arabidopsis thaliana with 12 samples.

Results

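The ZAT and AZF genes of Arabidopsis encode small zinc-finger proteins of the C2H2 type. The genes described here are ZAT5 (AT2G28200), ZAT6 (AT5G04340), ZAT7 (AT3G46090), ZAT8 (AT3G46080), ZAT10, also known as STZ (AT1G27730), ZAT11 (AT2G37430), ZAT12, also known as RHL41 (AT5G59820), AZF1 (AT5G67450), AZF2 (AT3G19580) and AZF3, also known as ZF3 (AT5G43170). They were taken by name and make up 10 of the 23739 genes in the count table. Earlier results of these data were known when they were chosen. All 10 passed the filter on low counts and were tested.

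Transcripts of these genes were measured by poly(A) RNA-seq in whole seedlings that were 10 days old. The wild type was the accession Col-0. The mutant was ate1-2 ate2-1 (a1a2), which carries mutations in the genes of both arginyl transferases, ATE1 and ATE2, of the Arg/N-degron pathway. Seedlings of each genotype received water (mock) or 1 µM flg22, a flagellin peptide that elicits pattern-triggered immunity (PTI), in liquid medium and were collected after 1 h. Each of the 4 groups had 3 biological replicates, each pooled from 50 seedlings, so the values are averages over all organs. In such samples, a change in the number of cells that express a gene and a change in RNA per cell cannot be told apart.

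C2H2 proteins of this family read DNA with a pair of zinc fingers that carry the plant-specific motif QALGGH. Many also carry an EAR motif, a short leucine-rich stretch through which transcription factors recruit TOPLESS co-repressors. Several are known as repressors in cold, salt, drought and oxidative stress. Their transcripts are known to accumulate rapidly after wounding, elicitors and other stress, and MPK3 and MPK6, kinases of the flg22 signalling cascade, are known to phosphorylate some of them.

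All 10 genes had a single exon in the RefSeq annotation of TAIR10.1, and each predicted protein held 2 QALGGH motifs. The proteins ranged from 162 residues for ZAT12 to 286 residues for ZAT5. For the EAR motif, only the exact letters DLNL were searched. They occurred in ZAT5, ZAT11, AZF1 and AZF2, between 14 and 50 residues from the C-terminus. Other forms of the motif were not searched, so the remaining proteins were not shown to lack it. ZAT7 and ZAT8 were the closest pair, with 148 identical residues, or 90.2% of the shorter protein. They lie in tandem on chromosome 3, at 16925881 to 16926883 and 16922514 to 16923299 of the minus strand, with 2581 bases and 1 annotated gene between them. Their coding sequences were 91.7% identical over 486 aligned bases. The deposited counts of ZAT7 and of ZAT8 were fractional in 0 libraries, so they showed no sign of reads split between the genes. How reads that match both genes were assigned is not given, so their separate values remain uncertain. ZAT6 and ZAT10 shared 73.6% of residues, and ZAT8 and ZAT12 shared 71.0%. The authors' Gene Ontology annotation assigned "response to chitin" to 9 of the 10 genes, all but ZAT5. It assigned this term to 0.778% of the 16572 genes with an annotation.

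The 250 bases before the annotated gene start are shown for 6 genes that rose strongly after flg22 and fell into 2 groups by a shared short block. Capitals mark each searched motif. In ZAT7, ZAT8 and ZAT12, the shared block was CGCGGTG. It contains CGCG, the core of the element that calmodulin-binding transcription activators are known to bind. CGCG also occurs outside the capitals in ZAT7 and ZAT8. The windows of these tandem genes share longer stretches, so the block is not independent between them.
ZAT7 (chr3:16926884-16927133, minus strand): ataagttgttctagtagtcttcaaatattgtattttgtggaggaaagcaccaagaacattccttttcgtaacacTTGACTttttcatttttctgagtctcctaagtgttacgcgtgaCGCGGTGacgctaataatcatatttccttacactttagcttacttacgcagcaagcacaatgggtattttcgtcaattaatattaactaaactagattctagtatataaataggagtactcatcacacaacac
ZAT8 (chr3:16923300-16923549, minus strand): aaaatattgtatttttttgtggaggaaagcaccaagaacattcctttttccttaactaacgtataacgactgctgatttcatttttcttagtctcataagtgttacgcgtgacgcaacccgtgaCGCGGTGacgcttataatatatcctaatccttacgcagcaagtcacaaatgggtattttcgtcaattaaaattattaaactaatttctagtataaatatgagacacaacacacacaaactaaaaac
ZAT12 (chr5:24102564-24102813, plus strand): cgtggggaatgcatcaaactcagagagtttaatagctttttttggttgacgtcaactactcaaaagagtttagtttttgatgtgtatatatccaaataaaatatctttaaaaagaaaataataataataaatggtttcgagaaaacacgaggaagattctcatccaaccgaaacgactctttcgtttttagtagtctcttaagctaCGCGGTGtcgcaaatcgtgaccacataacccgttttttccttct

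In ZAT6, ZAT10 and ZAT11, the shared block was TAGAATATT, and ZAT6 and ZAT10 also held a GCC box, the element bound by ETHYLENE RESPONSE FACTOR (ERF) proteins.
ZAT6 (chr5:1217363-1217612, minus strand): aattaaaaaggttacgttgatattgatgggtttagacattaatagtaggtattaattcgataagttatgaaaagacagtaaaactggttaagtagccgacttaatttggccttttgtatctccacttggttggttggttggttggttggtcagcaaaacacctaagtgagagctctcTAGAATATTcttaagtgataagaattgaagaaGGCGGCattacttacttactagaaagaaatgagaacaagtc
ZAT10 (chr1:9649324-9649573, minus strand): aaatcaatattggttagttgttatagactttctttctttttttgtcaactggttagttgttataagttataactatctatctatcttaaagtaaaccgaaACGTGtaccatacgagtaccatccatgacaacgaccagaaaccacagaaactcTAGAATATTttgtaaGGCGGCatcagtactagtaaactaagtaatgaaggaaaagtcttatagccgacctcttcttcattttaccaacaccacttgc
ZAT11 (chr2:15706035-15706284, plus strand): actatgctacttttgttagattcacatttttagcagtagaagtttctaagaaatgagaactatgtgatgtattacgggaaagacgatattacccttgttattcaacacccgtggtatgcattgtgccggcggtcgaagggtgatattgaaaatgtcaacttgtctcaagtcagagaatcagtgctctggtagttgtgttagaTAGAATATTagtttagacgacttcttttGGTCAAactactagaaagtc

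Motifs were searched on both strands as exact letters, and their share was counted over 23738 promoters of the same length. The block CGCGGTG occurred in 0.274% of all promoters and TAGAATATT in 0.914%. Both blocks were picked by reading these promoters, so their presence here is a description and was not tested. GCCGCC (the GCC box) occurred in 1.91% of all promoters. A W-box, the element bound by WRKY proteins, was searched as TTGACC or TTGACT. It was found once each in ZAT5, ZAT7, ZAT11, AZF1 and AZF2, which is 5 of the 10 genes against 28.6% of all promoters. ACGTG, the core of the abscisic acid response element, was found in ZAT10 and in 23.6% of all promoters. The G-box (CACGTG) and the rapid stress response element (CGCGTT) had no match in the 10 windows. AZF3 held none of the searched motifs.

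**Figure D1:**
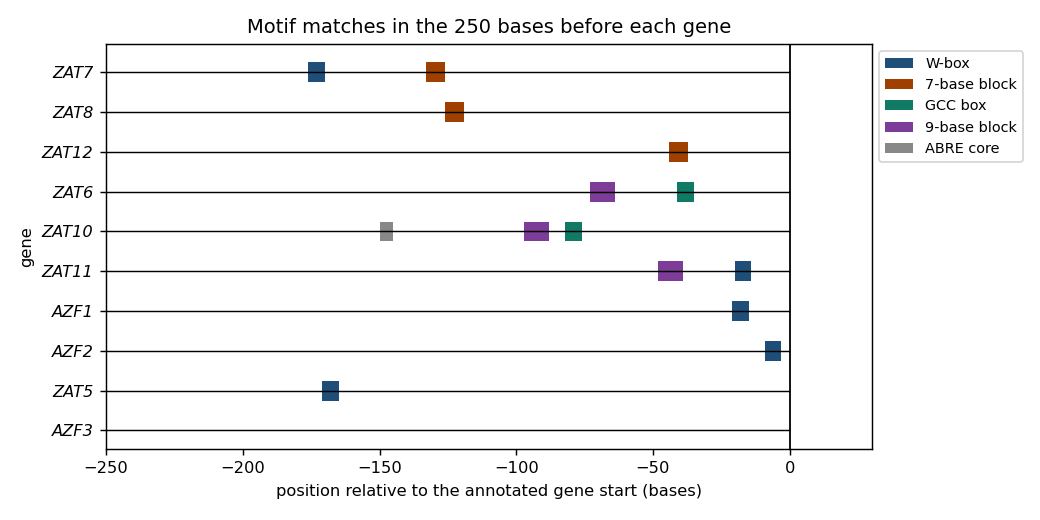
Position of motif matches in the 250 bases before the annotated start of each gene, in bases relative to that start (x axis). The 7-base block of ZAT7 and ZAT8 lies 133 to 127 and 126 to 120 bases before the start, and that of ZAT12 lies 44 to 38 bases before it.

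The libraries held 20285662 to 22433536 counts each. Counts of ATE1 were 427 to 567 in the Col-0 libraries and 50 to 81 in the a1a2 libraries, and those of ATE2 were 91 to 165 and 3 to 13. FRK1, a marker gene of the flg22 response, had 235 to 1733 counts in Col-0 after flg22 and 21 to 229 in mock. In a1a2 it had 115 to 739 and 6 to 252. Replicate 1 held the highest count of FRK1 in each of the 4 groups. The flg22 effect on FRK1 was called with the replicate number as a block and not without it. Adjusted p in edgeR was 0.00034 in Col-0 and 0.000881 in a1a2 with the block, and 0.0877 and 0.199 without it. Of 8 organ markers, the leaf and root genes were present in every library and the pollen gene AT5G45880 had 0 to 3 counts. The root gene TIP2;3 was lower in a1a2 without overlap, at 17.6 to 31 CPM against 34.5 to 52.5 in Col-0 in mock, and at 20.2 to 29.8 against 39.9 to 44.1 CPM after flg22. Its difference did not pass the test in edgeR without the block (log2 -0.79 ± 0.21 and -0.74 ± 0.21, adjusted p = 0.481 and 0.622). With the block it came close to the limit of 0.05 (log2 -0.80 ± 0.17 and -0.76 ± 0.17, adjusted p = 0.0549 and 0.0743). The share of all tested genes without overlap between genotypes was not determined. The other root genes differed less between genotypes. For BGLU23 the log2 difference was -0.12 in mock and -0.23 after flg22. For the root hair genes it was -0.03 and -0.05 (EXPA7) and 0.085 and 0.18 (COBL9). The seed storage gene CRA1 had 0 to 5 counts in the Col-0 libraries and 0 to 225 in the a1a2 libraries. The part of TIP2;3 or CRA1 in the genotype differences was not tested.

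To compare levels between genes, CPM (counts scaled to the normalised library size) were divided by coding length in kb. In mock-treated Col-0, ZAT10 had the highest mean of the 10 genes (13.2 ± 2.72 CPM per kb, SD, n = 3), followed by ZAT6 (11.1 ± 2.67) and ZAT5 (10.4 ± 3.28). The next were AZF3 (9.03 ± 0.365), ZAT12 (8.87 ± 0.526), AZF2 (7.33 ± 1.79) and AZF1 (5 ± 0.908 CPM per kb). ZAT11 (2.58 ± 0.285), ZAT7 (2 ± 0.508) and ZAT8 (1.8 ± 0.167 CPM per kb) had the lowest levels. Neighbours in this order overlapped in their libraries except AZF1 and ZAT11, which split the genes into 7 with higher and 3 with low mock levels.

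After flg22 the order in Col-0 was different. ZAT11 had the highest mean (265 ± 115 CPM per kb), overlapping ZAT10 (212 ± 49), and both lay above ZAT12 (74.6 ± 28.4) and ZAT6 (55.8 ± 10.4) in every library. ZAT7 (41.9 ± 25.5), AZF2 (20.4 ± 3.14), AZF1 (16.5 ± 4.24), AZF3 (11.4 ± 3.89), ZAT8 (11.1 ± 6.61) and ZAT5 (7.04 ± 1.32 CPM per kb) followed, each overlapping the next. In a1a2 after flg22, ZAT11 (337 ± 36.7), ZAT10 (272 ± 19.3) and ZAT12 (79.3 ± 10.5 CPM per kb) again led, and there the libraries of ZAT11 and ZAT10 did not overlap. ZAT10 and ZAT11 together accounted for 21.5% of the summed CPM of the 10 genes in mock-treated Col-0 and for 66.5% after flg22. The corresponding shares in a1a2 were 18.3% and 69.5%.

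**Figure D2:**
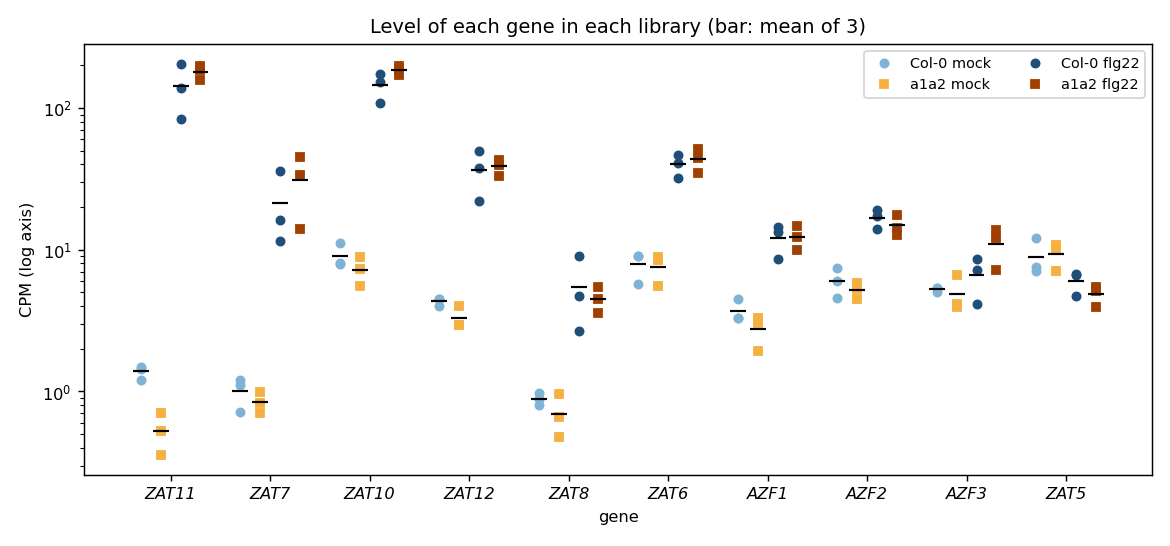
CPM of the 10 genes (y axis, log scale) in each of the 12 libraries, with circles for Col-0, squares for a1a2 and a bar at the mean of 3. ZAT11 spans the widest range, from 0.355 to 0.7 CPM in mock-treated a1a2 to 83.2 to 206 CPM in Col-0 after flg22.

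The first comparison asked how each gene responded to flg22 in each genotype. In Col-0, 8 of the 10 genes rose (adjusted p under 0.05 and more than 1.5-fold, edgeR), and none fell. Of all 20439 tested genes, 13.9% rose and 7.06% fell in Col-0. In a1a2, 9 of the 10 rose and 1 fell, against 13.9% and 7.29% of all genes. The median log2 fold change of the 10 genes was 2.48 in Col-0 and 2.60 in a1a2, and the median of all tested genes was -0.015 and -0.002.

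ZAT11, known for roles in root growth and metal tolerance, rose most. It had 30, 34 and 34 counts in mock-treated Col-0 and 4009, 1613 and 2840 after flg22. In a1a2 it had 9, 12 and 16 counts in mock and 3152, 3585 and 4002 after flg22. Every flg22 library was thus far above every mock library, and the lowest flg22 library was replicate 2 of Col-0. The log2 fold change was 6.68 ± 0.35 (SE) in Col-0 (102-fold, adjusted p = 1.04e-07) and 8.42 ± 0.39 in a1a2 (343-fold, adjusted p = 3.79e-08). By the size of the rise, ZAT11 ranked 77 of the 20439 tested genes in Col-0 and 30 in a1a2.

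ZAT10, a repressor known from salt, drought and high-light stress, had 199, 252 and 186 counts in mock-treated Col-0 and 3396, 2109 and 3120 after flg22. In a1a2 the counts were 186, 202 and 126 in mock and 3755, 3298 and 4019 after flg22. It rose 16.0-fold in Col-0 (log2 4.004 ± 0.23, adjusted p = 2.01e-07) and 25.8-fold in a1a2 (log2 4.69 ± 0.24, adjusted p = 6.65e-08). ZAT6, its nearest relative in protein sequence, which is known for roles in phosphate uptake, root development and cadmium tolerance, changed less. It had 225, 203 and 135 counts in mock-treated Col-0 and 914, 624 and 842 after flg22, and 224, 192 and 127 against 1024, 670 and 903 in a1a2. The mock and flg22 libraries of ZAT6 did not overlap, and within each treatment both genotypes had nearly the same counts at each replicate number. ZAT6 rose 5.04-fold in Col-0 (log2 2.33 ± 0.24, adjusted p = 2e-05) and 5.74-fold in a1a2 (log2 2.52 ± 0.24, adjusted p = 1.02e-05).

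ZAT12, which is needed for the response to oxidative stress, had 100, 101 and 106 counts in mock-treated Col-0 and 969, 428 and 774 after flg22. In a1a2 the counts were 102, 67 and 67 in mock and 860, 636 and 809 after flg22. It rose 8.4-fold in Col-0 (log2 3.07 ± 0.27, adjusted p = 4.74e-06) and 11.7-fold in a1a2 (log2 3.55 ± 0.27, adjusted p = 1.6e-06).

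The tandem genes ZAT7 and ZAT8, both with low mock counts, also rose. ZAT7, known for a role in salt tolerance, had 30, 25 and 17 counts in mock-treated Col-0 and 226, 314 and 739 after flg22. In a1a2 it had 25, 19 and 16 counts in mock and 279, 646 and 911 after flg22. All flg22 libraries exceeded the mock libraries, but the flg22 libraries of ZAT7 spread widely, with replicate 3 highest and replicate 1 lowest in both genotypes. ZAT7 rose 20.8-fold in Col-0 (log2 4.38 ± 0.54, adjusted p = 9.71e-05) and 36.4-fold in a1a2 (log2 5.19 ± 0.56, adjusted p = 3.12e-05). Without replicate 3 of Col-0 after flg22, the rise of ZAT7 in Col-0 was 13.6-fold. ZAT8 had 20, 22 and 21 counts in mock-treated Col-0 and 92, 52 and 187 after flg22, and 12, 22 and 15 against 89, 68 and 110 in a1a2. It rose 6.15-fold in Col-0 (log2 2.62 ± 0.42, adjusted p = 0.000584) and 6.43-fold in a1a2 (log2 2.68 ± 0.43, adjusted p = 0.000596).

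AZF1 and AZF2 encode repressors known from osmotic stress and abscisic acid responses. AZF1 had 81, 75 and 105 counts in mock-treated Col-0 and 282, 167 and 275 after flg22, and 84, 44 and 69 against 247, 190 and 297 in a1a2. It rose 3.3-fold in Col-0 (log2 1.72 ± 0.25, adjusted p = 0.000319) and 4.47-fold in a1a2 (log2 2.16 ± 0.26, adjusted p = 6.21e-05). AZF2 rose by similar amounts in both genotypes. It had 112, 137 and 176 counts in mock-treated Col-0 and 371, 271 and 354 after flg22, and 113, 132 and 120 against 351, 243 and 290 in a1a2. The rise of AZF2 was 2.78-fold in Col-0 (log2 1.48 ± 0.20, adjusted p = 0.000175) and 2.88-fold in a1a2 (log2 1.53 ± 0.20, adjusted p = 0.000136).

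AZF3 and ZAT5 departed from the other 8 genes. AZF3 had 124, 122 and 126 counts in mock-treated Col-0 and 81, 139 and 177 after flg22, so that the groups overlapped. The log2 fold change was 0.34 ± 0.30 in Col-0, which did not pass the test (adjusted p = 0.47). In a1a2, AZF3 had 167, 94 and 90 counts in mock and 142, 232 and 279 after flg22, where the groups overlapped in counts but not in CPM (3.94 to 6.59 against 7.16 to 13.8). It rose 2.25-fold in a1a2 (log2 1.17 ± 0.30, adjusted p = 0.0132). This call was lost when replicate 2 (adjusted p = 0.0557) or 3 (0.054) of the a1a2 mock group was left out and in a test against a change of 1.5-fold (adjusted p = 0.0911).

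AZF3 overlaps AT5G43160 on the opposite strand, and the deposited counts of AZF3 were fractional in all 12 libraries. Without strand information, which is not given in the sources used here, reads from the overlap cannot be assigned to either gene. AT5G43160 had 41 to 59 counts in mock-treated Col-0 and 17 to 26 after flg22, and 35 to 56 against 17 to 24 in a1a2. It fell after flg22 in Col-0 (log2 -0.80 ± 0.27, adjusted p = 0.0449) and in a1a2 (log2 -0.96 ± 0.27, adjusted p = 0.0213), the direction opposite to that of AZF3. How far it contributed to the values of AZF3 was not tested.

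ZAT5 was the only one of the 10 genes with a lower mean after flg22. It had 186, 161 and 288 counts in mock-treated Col-0 and 130, 92 and 139 after flg22, and 179, 233 and 248 against 102, 76 and 111 in a1a2. In both genotypes every flg22 library had a lower CPM than every mock library. The fall passed the test in a1a2 (1.92-fold, log2 -0.94 ± 0.25, adjusted p = 0.0149) and not in Col-0 (log2 -0.56 ± 0.25, adjusted p = 0.119). The call in a1a2 was lost without replicate 2 (adjusted p = 0.0511) or 3 (0.0565) of mock-treated a1a2, without replicate 2 of flg22-treated a1a2 (0.0639), and in the test against 1.5-fold (0.183). With library size alone as the scaling, under which the median of all genes was -0.264 in Col-0 and -0.256 in a1a2, ZAT5 was also called in Col-0 (log2 -0.81, adjusted p = 0.0244).

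**Figure D3:**
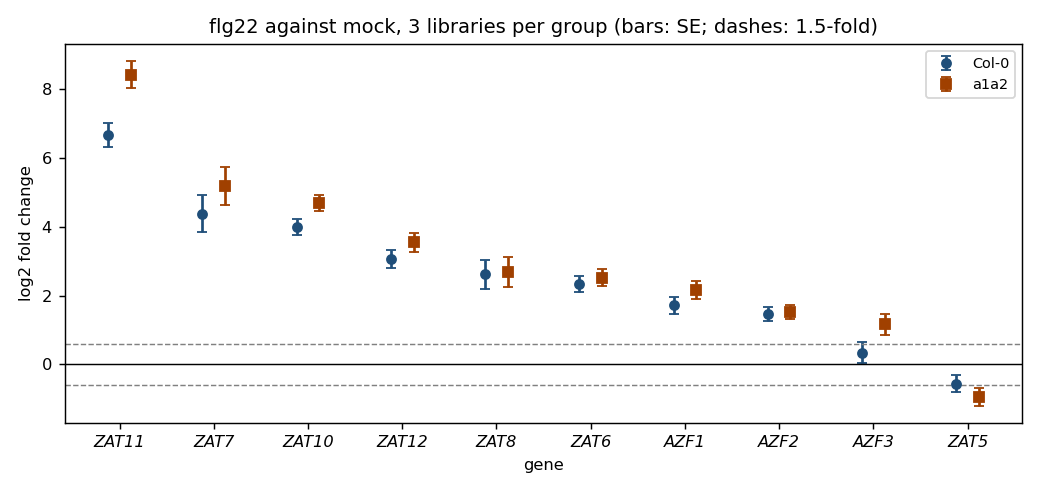
Log2 fold change of flg22 against mock (y axis) for the 10 genes in Col-0 (circles) and a1a2 (squares), with SE as bars, 3 libraries per group and dashed lines at 1.5-fold. The values run from 6.68 in Col-0 and 8.42 in a1a2 for ZAT11 to -0.56 and -0.94 for ZAT5.

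The second comparison asked whether levels of these genes depended on the arginyl transferases. Neither in mock nor after flg22 did any of the 10 genes pass the test between a1a2 and Col-0 in edgeR or DESeq2. At an unadjusted p under 0.05, there was 1 of the 10 genes in mock (ZAT11), against 4.6% of all tested genes, and 1 after flg22 (AZF3), against 4.65%. With the replicate number as a block, 2 of the 10 were under this limit in mock (ZAT11 and AZF1), against 11.8% of all genes, and 1 after flg22 (AZF3), against 13.3%. Few genes passed between genotypes, 0.166% of all tested genes in mock and 0.137% after flg22. With the block these shares were 0.959% and 0.827%, and still none of the 10 was called.

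ZAT11 differed most in mock, where its 9, 12 and 16 counts in a1a2 lay below the 30, 34 and 34 in Col-0 without overlap. The log2 difference was -1.40 ± 0.41 (adjusted p = 0.646). Over all other settings tried, adjusted p ranged from 0.0777 (DESeq2 with the replicate block) to 1. After flg22 the order did not persist, with 159, 187 and 197 CPM of ZAT11 in a1a2 and 206, 83.2 and 138 CPM in Col-0 (log2 difference 0.35 ± 0.26, adjusted p = 0.997). Of the other genes in mock, ZAT12 also had no overlap, but by a narrow margin (2.93 to 4.03 CPM in a1a2 against 4.04 to 4.5 in Col-0). Its log2 difference was -0.39 ± 0.27 (adjusted p = 1). The share of all tested genes without overlap between genotypes was not determined. ZAT6 had differences of -0.06 ± 0.24 in mock and 0.13 ± 0.22 after flg22, both within 1 SE of 0. AZF3 had the largest difference after flg22, at 7.16, 12.1 and 13.8 CPM in a1a2 against 4.16, 7.17 and 8.6 CPM in Col-0. The groups overlapped, although a1a2 was higher at each replicate number, and the log2 difference of 0.73 ± 0.30 did not pass the test (adjusted p = 0.997, and 0.202 to 1 over the other settings).

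**Figure D4:**
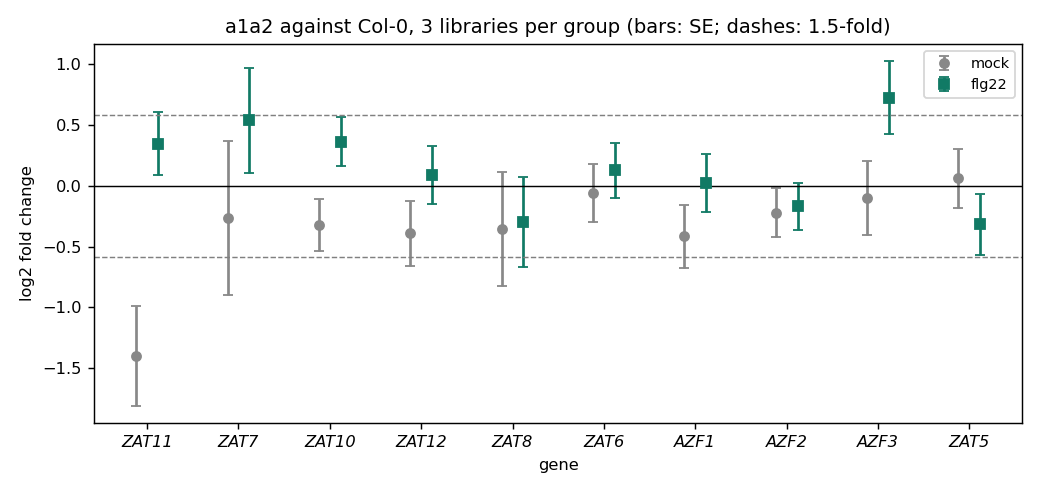
Log2 ratio between a1a2 and Col-0 (y axis) for the 10 genes in mock (circles) and after flg22 (squares), with SE as bars, 3 libraries per group and dashed lines at 1.5-fold. Only ZAT11 in mock (-1.40) and AZF3 after flg22 (0.73) lie beyond the dashed lines.

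The third comparison asked whether the flg22 response itself differed between genotypes. It tested the difference of the log2 fold changes, a1a2 minus Col-0, and called none of the 10 genes and 0% of all tested genes, with the block as well. DESeq2 also called none of the 10. At an unadjusted p under 0.05 there were 2 of the 10 genes, ZAT11 and ZAT10, against 0.92% of all genes. The difference was 1.74 ± 0.49 for ZAT11 (adjusted p = 1) and 0.68 ± 0.29 for ZAT10 (adjusted p = 1). Taken by replicate number, the a1a2 response of ZAT11 exceeded the Col-0 response by 1.40, 2.69 and 1.56 on the log2 scale in replicates 1, 2 and 3. Those of ZAT10 were 0.25, 1.00 and 0.91. Both genes had their lowest Col-0 flg22 level in replicate 2. Without that library the difference was 1.47 for ZAT11 and 0.51 for ZAT10, and adjusted p stayed at 1. Leaving out any other single library gave differences of up to 2.12 for ZAT11. The ZAT11 difference combines genotype differences of -1.40 in mock and 0.35 after flg22. Its larger part thus lay in mock, with 9, 12 and 16 counts in a1a2. AZF3, called in a1a2 only, had a difference of 0.83 ± 0.43 (adjusted p = 1), and ZAT5, likewise, one of -0.38 ± 0.35 (adjusted p = 1). The responses of AZF3 and ZAT5 were therefore not shown to differ between the genotypes.

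Samples with the same replicate number deviated together, so the spread of each gene over the replicates was examined next. The replicate number, tested with the groups in the model, passed in edgeR for ZAT7 (adjusted p = 0.0385) and AZF1 (adjusted p = 0.0132). That is 2 of the 10 genes, against 30.7% of all tested genes. ZAT7 was higher in replicate 3 than in replicate 1 by 1.21 ± 0.32 on the log2 scale when averaged over the groups, but in mock it was lower in replicate 3 (0.722 against 1.21 CPM in Col-0 and 0.7 against 0.987 CPM in a1a2). AZF1 was lower in replicate 2 than in replicate 1 by a log2 difference of -0.47. After flg22, replicate 2 had the lowest CPM of ZAT5, ZAT6, ZAT8, ZAT10, ZAT12, AZF1 and AZF2 in both genotypes. ZAT7 and AZF3 instead had their lowest CPM after flg22 in replicate 1 of both genotypes. MPK3 after flg22 had 855, 595 and 985 CPM in Col-0, lowest in replicate 2, and 902, 1040 and 1060 CPM in a1a2, lowest in replicate 1.

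**Figure D5:**
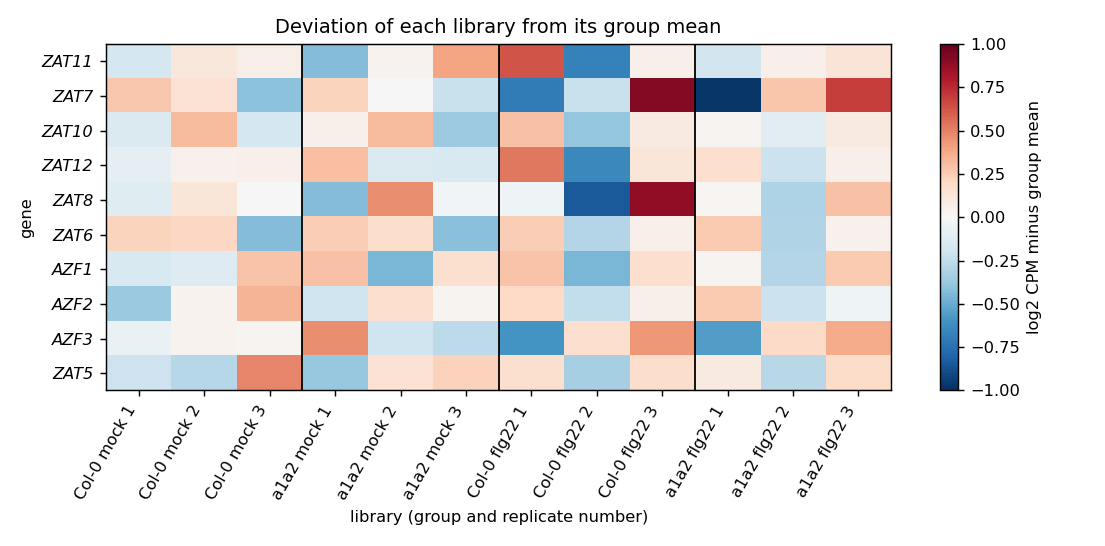
Log2 CPM of each gene minus its group mean (colour, from -1 in blue to 1 in red) in the 12 libraries (x axis, by group and replicate number). In the flg22 groups ZAT7 runs from -0.70 in replicate 1 to 0.92 in replicate 3 of Col-0, and from -0.98 to 0.70 in a1a2.

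The genes with the most similar pattern over the 12 libraries were found by Pearson's r of log2 CPM for the 4 genes with the highest mean CPM per kb. For ZAT11 they were AT1G64065 (r = 0.997), VAMP723 (0.996) and DLAH (0.996). For ZAT10 they were AR781, ERF6 and TET8 (each r = 0.998). For ZAT12 they were AT4G28460 (0.997), COBL8 (0.995) and CZF1 (0.994), and for ZAT6 AT1G69890 (0.995), AT4G17250 (0.993) and AT3G03030 (0.993). These libraries share the flg22 contrast, and an r above 0.95 was reached by 1378 tested genes for ZAT11 and 1435 for ZAT10, so the values describe a common rise after flg22.

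RefSeq proteins with at least 2 QALGGH motifs came from 27 genes, of which 15 besides the 10 were in the count table. Only 9 of those 15 had enough counts to be tested, and 1 of them, AT3G53600, rose in each genotype. None fell. This count is close to the 13.9% of all tested genes that rose in each genotype. Their median log2 fold change was -0.22 in Col-0 and 0.03 in a1a2. AT3G53600 had 3, 4 and 6 counts in mock-treated Col-0 and 71, 29 and 24 after flg22, and 4, 5 and 6 against 14, 15 and 16 in a1a2. It rose 11.1-fold in Col-0 (adjusted p = 0.000225) and 3.52-fold in a1a2 (adjusted p = 0.0208). After flg22 its a1a2 libraries lay below all Col-0 libraries, but the difference did not pass the test (log2 -1.46 ± 0.41, adjusted p = 0.592). How many of all tested genes separated in this way was not determined.

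Of the partners of the family, the 8 co-repressor genes (TPL, TPR1 to TPR4, SAP18, HDA19 and HDA6) were all expressed. None of them was called in any of the comparisons by treatment or genotype. After flg22 in Col-0, 13.9% of all tested genes rose and 7.06% fell. Without the replicate block, an unadjusted p under 0.05 for flg22 in either genotype was reached by 1 of the 8, TPR3 (log2 0.41 ± 0.16 in Col-0 and 0.37 ± 0.16 in a1a2). Of all tested genes, 37.6% in Col-0 and 37.3% in a1a2 were under this limit. With the block, TPL, TPR2, TPR3 and TPR4 were under it in Col-0, against 48.1% of all tested genes. In a1a2 TPR2 and TPR3 were, against 46.9%. None of the co-repressor genes was called with the block. MPK3 rose 9.82-fold in Col-0 (81.6, 93.9 and 72.5 CPM in mock and 855, 595 and 985 CPM after flg22, adjusted p = 2.84e-07) and 13.7-fold in a1a2 (adjusted p = 1.07e-07). MPK6 had an adjusted p of 0.00779 in Col-0 but was 1.37-fold higher, under the threshold of 1.5-fold.

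Of 19 genes reported as targets of these factors, directly bound or not, 16 were tested. APX2, CBF1 and CBF3 had too few counts. In Col-0, 1 rose and none fell, against 13.9% and 7.06% of all tested genes. In a1a2, 2 rose and none fell, against 13.9% and 7.29%. Their median log2 fold change was -0.11 in Col-0 and 0.04 in a1a2. PCS1 encodes the enzyme that makes metal-binding phytochelatins and is reported to act downstream of ZAT6 in cadmium stress. It rose 23.1-fold in Col-0 (1212, 1111 and 1136 counts in mock and 25758, 21365 and 19749 after flg22, adjusted p = 3.97e-08). A link between the rises of ZAT6 and PCS1 was not tested. In a1a2 it rose 24.3-fold (adjusted p = 2.87e-08). PCS2 rose 2.22-fold in a1a2 (adjusted p = 0.0249). With the replicate block, GSH2, a glutathione synthetase gene, also rose in both genotypes (log2 0.85 ± 0.08 in Col-0 and 0.92 ± 0.08 in a1a2, adjusted p = 3.16e-06 and 1.44e-06), and CBF2 and SAUR65 fell. CBF2 is a regulator of cold acclimation, and its log2 fold change with the block was -1.22 ± 0.29 in Col-0 and -1.17 ± 0.30 in a1a2 (adjusted p = 0.00507 and 0.00731). SAUR65, an auxin-induced gene that AZF1 and AZF2 are known to repress, had -0.84 ± 0.31 and -1.17 ± 0.35 (adjusted p = 0.0496 and 0.0184). SAUR61 to SAUR64 and GSH1, also on the list, were not called for flg22 in either genotype, with or without the block. The block thus gave 2 higher and 2 lower of the 16 genes in Col-0, against 15.3% and 9.27% of all tested genes, and 3 and 2 in a1a2, against 15.5% and 9.37%. These counts are close to the shares of all genes. None of the 16 was called between genotypes in either treatment, with or without the block. Of all tested genes, 0.166% were called in mock and 0.137% after flg22, and 0.959% and 0.827% with the block.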

How the data were processed

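RNA was extracted from 12 samples of pooled seedlings and sequenced by BGI as paired-end reads. According to the study's methods, reads were filtered with SOAPnuke and aligned with HISAT, and the submitters' processing notes name the build TAIR10 and DESeq2. The counting tool, annotation and strandedness are not given in the sources used here. The authors deposited estimated counts per gene, not scaled to depth (20285662 to 22433536 per library). Fractional values made up 7.5% of entries, in 2661 genes. Counts were rounded. The 4 deposited columns of group averages were not used, and no column belonged to an unmapped sample.

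Genes were matched by Entrez identifier to RefSeq TAIR10.1, from which positions, proteins and promoters were read. Testing used edgeR 4.0.16 in R 4.3.3 (filterByExpr, 20439 genes kept and 3300 removed, TMM, robust quasi-likelihood F-test, 1 mean per group, Benjamini-Hochberg adjustment over all tested genes). A gene counted as called past 1.5-fold with adjusted p below 0.05. SE is the log2 fold change divided by the root of F. Comparisons share libraries. The replicate number was tested with 2 degrees of freedom, at an adjusted p under 0.05. Log2 CPM used a prior count of 2. Alternatives were other size factors, library size alone, no filter, DESeq2 1.42.0, a replicate block, only the compared libraries, a test against 1.5-fold (glmTreat) and leaving out each library. The script was tested on simulated data.

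Replicates are separate biological replicates by the study's methods. The labels number them without saying what a number shares. Same-numbered samples deviated together in every pair (r of deviations from the group means, 0.218 to 0.66), so the replicate block was run as a pairing in an alternative fit. The main fit had no block, so its SE and p ignore this pairing. Values from the fit with the block are named as such.

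Named genes were the 10 members, ATE1, ATE2 and FRK1, and from the lists of related proteins, co-repressors, kinases and targets those called, with the 3 genes most like each of 4 members. The overlap partner AT5G43160, TPR3, MPK6, GSH1, SAUR61 to SAUR64 and genes called only with the block were named after their values were seen. So was AT3G53600's genotype difference. The members and lists were chosen with earlier results of these data known. Other assays of the study were not analysed here.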

Additional observations from a re-analysis of the deposited data

How the results depend on the processing

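The 8 calls of the members in Col-0 and the 10 in a1a2 kept their direction under every alternative. Scaling by library size alone gave 9 calls in Col-0. Leaving out 1 library at a time gave 8 calls in Col-0 and 8 to 10 in a1a2, the lost ones being AZF3 and ZAT5, and the test against 1.5-fold lost the same 2 genes. No alternative called a member between genotypes or in the interaction. Without the filter on low counts, the replicate number was called for 1 member in place of 2. Of all tested genes, 34 differed between genotypes in mock and 28 after flg22. DESeq2 gave 103 and 82, the replicate block 196 and 169, and DESeq2 with the replicate block 323 and 275, with 4 genes in the interaction. The fit to only the compared libraries gave 12 in mock. Leaving out 1 library gave 14 to 33 in mock and 15 to 24 after flg22. The test against 1.5-fold called 2445 genes for flg22 in Col-0 and 2512 in a1a2. The replicate block changed no call of a member. Low mock counts limit the fold changes of ZAT7, ZAT8 and ZAT11. The causes of these differences were not tested.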
